A study of Mus musculus with 46 samples.

Results

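Transcript levels of 10 receptor genes for inhibitory neuropeptides were described in 7 kinds of cortical GABAergic neuron of the mouse. The genes were chosen by name, as 10 rows of a table of 23335 genes, and they encode receptors of neuropeptide Y (Npy1r, Npy2r and Npy5r), of somatostatin (Sstr1, Sstr2, Sstr3 and Sstr4) and of opioid peptides (Oprm1, Oprd1 and Oprk1). All 10 rows were present. Npy1r was high in interneuron-selective and CCK basket cells, Oprm1 was high in 3 of 4 deep chandelier libraries, and Oprk1 had no count in 4 of the 7 types.

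These receptors couple to inhibitory G proteins of the Gi/Go class. Their activation lowers cyclic AMP through adenylyl cyclase, opens GIRK potassium channels and reduces presynaptic calcium entry, so that the receptor-bearing neuron fires less or releases less transmitter. In cortex the peptides themselves are made largely by GABAergic neurons: somatostatin and neuropeptide Y by the somatostatin class, and enkephalin, the Penk product, by several classes including Vip neurons.

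The study isolated fluorescent neurons by hand from dissected frontal cortex of genetically labelled mice and sequenced amplified polyadenylated RNA in libraries of up to 16 barcoded cells. All sample titles give the source as WT (wild-type) brain. The table held 584 cells, in 46 labelled libraries from 18 labelled animals; the series description mentions 4 animals. Ai65 is a red reporter that needs both Cre and Flp, Ai14 needs Cre alone. Martinotti cells (62 cells, Sst-Flp; CR-Cre; Ai65) and interneuron-selective cells (63 cells, Vip-Flp; CR-Cre; Ai65) came from the upper layers of females aged 35 and 32 postnatal days. CCK basket cells (64 cells, Vip-Flp; CCK-Cre; Ai65) came from the upper layers of males aged 39 and 40 days, and long-projecting cells (136 cells, Sst-Flp; Nos1-Cre; Ai65) from males aged 28 and 29 days. PV basket cells (127 cells, Pv-iresCre; Ai14) came from all layers of both sexes, aged 58 to 83 days. Chandelier cells were labelled by Nkx2.1-CreER with tamoxifen given late in gestation. Upper chandelier cells (80 cells) came from females aged 40 to 58 days, with 1 library labelled Ai15 in place of Ai14 and ages of 40 and 58 days under 1 animal number, and deep chandelier cells (52 cells, Ai14) from males aged 34 days. Type was therefore tied to driver line, age, sex and sequencing run, and these cannot be told apart. Martinotti and interneuron-selective cells shared a flow cell, as did upper chandelier and long-projecting cells, which takes away the sequencing run alone.

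Libraries, not cells, carried the variation. The 16 labelled PV basket libraries formed 8 pairs with the same index in neighbouring lanes; each pair differed by 1.25 to 1.93 times the counting error, against 5.77 to 140 times for the other 182 pairs of libraries of 1 type, so each pair was counted as 1 library and 38 libraries remained. The paired libraries had no cell barcode in common, while other libraries of a type had up to all 16 in common. Libraries held 530927 to 4568242 counts. Among 52 combinations of library and receptor with at least 50 counts, the variance between cells was a median of 1.07 times that of counting alone, with a range of 0.426 to 3.83. No source used says whether the values count random tags or reads, and comparisons with counting error, as well as upper limits from 3 counts, treat each count as an independent molecule. Levels are counts per 1000000 counts of a library (CPM); a type's level is the mean ± SD over 2 pools of animals, or 4 for long-projecting cells. A lower level in a library cannot be told apart as fewer expressing cells or as less RNA per cell. Summed Martinotti markers were at least 2309 CPM in Martinotti and long-projecting libraries and at most 1375 CPM elsewhere, and summed interneuron-selective markers at least 6228 CPM in interneuron-selective and CCK basket libraries and at most 3952 CPM elsewhere. Chandelier markers did not separate the types, with 920 to 1402 CPM in PV basket, 923 to 1168 CPM in upper chandelier and 359 to 933 CPM in deep chandelier libraries. PV basket markers summed to 2309 CPM in deep chandelier library 2, within the range of PV basket libraries (2143 to 3055 CPM). Tac1 alone made 1434 CPM of that sum. Pvalb was 553 CPM there, Lhx6 195 CPM, Kcnc1 123 CPM and Syt2 3.06 CPM. GABAergic markers summed to between 1698 and 7044 CPM in every library, and pyramidal markers to at most 103 CPM. Oligodendrocyte markers reached 2682 CPM in interneuron-selective library 3 and 3904 CPM in long-projecting library 2, against at most 255 CPM in Martinotti libraries; their part in the results was not tested.

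Chandelier libraries were not uniform. Deep chandelier library 4 held 1918 CPM of Vip, 911 CPM of Cnr1 and 2031 CPM of Adarb2, genes that mark caudally derived interneurons, whereas the other 3 deep libraries held at most 2.75, 32.2 and 363 CPM of these genes. Other markers of that lineage were low in library 4, with 3.84 CPM of Prox1 and 2.75 CPM of Htr3a. Upper chandelier library 1 held 374 CPM of Vip, 794 CPM of Cnr1 and 1638 CPM of Adarb2, against no Vip, at most 8.79 CPM of Cnr1 and at most 226 CPM of Adarb2 in the other 4, together with 40.6 CPM of Prox1 and 46.8 CPM of Htr3a. Of the chandelier markers, both held Pvalb (165 and 498 CPM), Unc5b (182 and 200 CPM) and Lhx6 (170 and 209 CPM). Nkx2-1 was at 16.5 and 57.2 CPM. Gabrg1 was the lowest of its type in both, at 3.29 and 15.6 CPM. Within deep library 1, Pvalb had no count, and within deep library 2 the chandelier marker Unc5b was 0.766 CPM. Without deep library 4, the deep chandelier means of Npy5r, Sstr1 and Oprd1 went from 10.5, 2.12 and 13.6 CPM to 0.172, 0 and 1.64 CPM. Without upper library 1, the upper chandelier means of Npy2r and Npy5r went from 3.33 and 0.151 CPM to 0.

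Of the 10 receptors, 8 passed a filter on low counts and were tested together with 15533 genes. Sstr3 and Sstr4 did not pass. Of the 8, 6 differed between the 7 types (edgeR quasi-likelihood test, Benjamini-Hochberg adjusted p under 0.05), where 25.0% of all tested genes did. Of the 6, Sstr2 passed the filter through the deep chandelier pools alone. Npy5r (adjusted p = 0.119) and Sstr1 (adjusted p = 0.0663) did not; at an unadjusted p under 0.05 all 8 did. Each type was also set against the other 6: of 56 combinations of receptor and type, 10 were called higher and 1 lower, where 5.89% and 2.67% of all such tests were. Of the pairs on 1 flow cell fitted alone, Martinotti against interneuron-selective cells had 1 receptor called, Npy2r, where 0.637% of all genes were. Upper chandelier against long-projecting cells had 4, Npy5r, Sstr1, Oprd1 and Oprk1, where 16.4% were. The filter was run on each pair alone. Npy5r, Sstr2 and Oprk1 did not pass it in the first pair, nor Sstr2 in the second. Npy2r had no count in Martinotti cells, Sstr1 and Oprk1 none in upper chandelier cells, and Npy5r 1 there. These passed through the other type alone, so their calls lend no support to a difference. With all types fitted, 0 and 1 receptors were called in these pairs, where 3.09% and 4.08% of all genes were. In pairwise tests with all types fitted, 28 of 168 combinations of receptor and pair of types were called, where 5.73% of all tests were. Of these calls, 8 were for Oprm1, 8 for Oprk1, 7 for Npy1r, 3 for Npy2r, 1 each for Sstr2 and Oprd1, and none for Npy5r or Sstr1. Of 48 neighbouring pairs of types in the receptors' orders of level, 1 was called, the step from deep chandelier to long-projecting cells for Oprm1. The other neighbours did not pass the threshold. Neighbours were picked by the rank of these same means, and some were both at 0, so this count does not show that neighbouring types were alike.

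Because the neuropeptide Y receptor genes differ in how they were spread over the types, the 250 bases before their RefSeq starts are shown. RefSeq promoters were found for 8 of the 10 receptors. Npy1r and Npy5r lie close together on chromosome 8 on opposite strands. Positions are on GRCm38.p6: Npy1r on the plus strand at chr8:66697172-66697421, Npy2r on the minus strand at chr3:82548086-82548335 and Npy5r on the minus strand at chr8:66688095-66688344. Each run reads 5′ to 3′ toward the start, and capitals mark motif matches on either strand. The E-box was searched as CANNTG and the GC box as GGGCGG. The TATA box was searched as TATAAA. The half-site of the cyclic AMP response element was searched as TGACG. The homeodomain core was searched as TAATTA.
Npy1r: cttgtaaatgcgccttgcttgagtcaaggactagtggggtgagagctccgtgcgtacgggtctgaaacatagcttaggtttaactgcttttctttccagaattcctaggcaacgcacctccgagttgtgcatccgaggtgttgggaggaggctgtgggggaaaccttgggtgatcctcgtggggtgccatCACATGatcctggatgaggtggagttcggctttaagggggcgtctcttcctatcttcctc
Npy2r: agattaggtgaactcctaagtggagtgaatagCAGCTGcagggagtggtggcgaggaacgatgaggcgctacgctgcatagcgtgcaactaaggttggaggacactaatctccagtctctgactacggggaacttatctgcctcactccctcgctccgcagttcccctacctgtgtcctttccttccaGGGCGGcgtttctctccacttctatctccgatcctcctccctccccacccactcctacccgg
Npy5r: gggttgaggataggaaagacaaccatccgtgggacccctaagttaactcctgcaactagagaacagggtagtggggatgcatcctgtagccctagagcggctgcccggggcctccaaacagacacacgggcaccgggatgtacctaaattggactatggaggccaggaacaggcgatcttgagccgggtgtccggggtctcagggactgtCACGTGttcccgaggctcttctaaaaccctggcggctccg

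Each of the 3 windows held 1 E-box match, and 66.2% of 32851 promoters held at least 1. Npy2r alone held a GC box, present in 32.7% of promoters. None held the TATA box (12.4% of promoters), the cyclic AMP half-site (17.8%) or the homeodomain core (4.84%). These letters describe the windows only.

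Npy1r, the postsynaptic Y1 receptor gene, was highest in the Vip-labelled types. Interneuron-selective libraries 1 to 4 gave 69.7, 40.1, 45.8 and 31.1 CPM. CCK basket libraries gave 50.0, 98.2, 44.6 and 58.8 CPM. All 8 lay above every one of the other 30 libraries, whose median was 4.80 CPM and whose highest, upper chandelier library 1, was 28.1 CPM. In order, the type means were 60.1 ± 11.6 CPM in CCK basket (SD, n = 2), 46.4 ± 9.62 in interneuron-selective (SD, n = 2), 7.84 ± 3.91 in upper chandelier (SD, n = 2), 6.59 ± 3.24 in Martinotti (SD, n = 2), 6.47 ± 1.503 in long-projecting (SD, n = 4), 4.08 ± 1.07 in PV basket (SD, n = 2) and 2.41 ± 2.88 in deep chandelier cells (SD, n = 2). The first pair did not differ beyond their spread (edgeR adjusted p = 0.712), nor did the neighbours among the 5 lower types. Interneuron-selective and upper chandelier pools did not overlap, but that step did not pass the threshold (edgeR adjusted p = 0.14).

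Npy1r was called higher in CCK basket cells, where 5.22% of all genes were, at log2 3.12 ± 0.49 (SE) against the mean log level of the other 6 types (edgeR adjusted p = 0.00203). It was also called higher in interneuron-selective cells, where 5.72% of all genes were, at log2 2.37 ± 0.52 (edgeR adjusted p = 0.0127), a call lost without either of the 2 interneuron-selective pools (adjusted p = 0.0851 and 0.0532). Both types derive from the caudal ganglionic eminence, an embryonic source of cortical interneurons. Against the 5 types of the medial eminence lineage, where 5.68% of all genes were higher, the joint difference was log2 3.29 ± 0.44 (edgeR adjusted p = 0.000295). Without the 2 chandelier libraries that stood apart it was log2 3.46 ± 0.44 (adjusted p = 0.00018), and the upper chandelier mean fell to 4.25 ± 1.17 CPM (SD, n = 2).

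Npy2r encodes the Y2 receptor, often a presynaptic autoreceptor. Interneuron-selective libraries gave 111, 131, 50.4 and 118 CPM. CCK basket libraries gave 12.4, 76.4, 0.429 and 65.3 CPM. Deep chandelier libraries gave 0, 0, 0.344 and 304 CPM, so that library 4 alone, with counts in 8 of its 8 cells, made the type's mean of 58.6 ± 82.9 CPM (SD, n = 2).

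Upper chandelier cells had Npy2r in library 1 alone, at 22.9 CPM, and 8 of 9 long-projecting libraries had it, from 0 through a median of 3.88 to 26.2 CPM. It had no count in 4 Martinotti and 8 PV basket libraries, which allows up to 0.362 and 0.144 CPM (3 counts over the type; counting error only). The 2 chandelier libraries with more than 1 count of Npy2r are the ones that carried Vip, Cnr1 and Adarb2; their part in the result was not tested.

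The order of Npy2r means was interneuron-selective (101 ± 30.4 CPM, SD, n = 2), deep chandelier, CCK basket (35.3 ± 2.23, SD, n = 2), long-projecting (6.22 ± 4.38, SD, n = 4) and upper chandelier (3.33 ± 4.71, SD, n = 2). It was called higher in interneuron-selective cells (edgeR adjusted p = 0.0105), by 5.84 times the mean level of the other 6 types. The fitted fold is not given, since 2 types had no count. It was also called higher in deep chandelier cells, where 12.3% of all genes were (edgeR adjusted p = 0.00904), but without library 4 the deep mean was 0.172 ± 0.243 CPM (SD, n = 2) and the adjusted p was 1. The pairwise calls of deep chandelier over Martinotti and PV basket cells were also lost without library 4 (adjusted p = 0.4804 and 0.3815). In CCK basket cells it was not called (adjusted p = 0.0548) and was called without deep library 4 (adjusted p = 0.00245). Caudal types were higher than medial types (edgeR adjusted p = 0.00579), and also without both libraries (adjusted p = 1.07e-05).

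Npy5r, the Y5 receptor gene, was sporadic. CCK basket libraries gave 50.98, 11.5, 0.429 and 17.2 CPM. Interneuron-selective cells had it in library 4 alone, at 62.2 CPM, and deep chandelier cells in library 4 at 53.8 CPM and library 3 at 0.344 CPM. Long-projecting libraries ran from 0 through a median of 2.78 to 14.8 CPM, with counts in 8 of 9. PV basket cells had 25 counts, all in 1 library (5.63 CPM), upper chandelier cells had 1 count, and Martinotti cells had none.

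For Npy5r the pools of neighbouring types in the order overlapped, while the CCK basket pools (35.9 and 9.00 CPM) lay above those of Martinotti, PV basket and upper chandelier cells. No single type was called. Its mean was 22.5 ± 19.0 CPM in CCK basket (SD, n = 2), 13.2 ± 18.7 in interneuron-selective (SD, n = 2) and 10.5 ± 14.8 in deep chandelier cells (SD, n = 2), neighbours that did not differ beyond their spread. The caudal types were called higher together (edgeR adjusted p = 0.0335), a call that held in 6 of 16 fits without 1 pool and was at adjusted p = 1 without the pool of interneuron-selective library 4. Without deep library 4 the difference between types was called (adjusted p = 0.0449), and so was CCK basket against the other 6 (adjusted p = 0.0153).

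**Figure D1:**
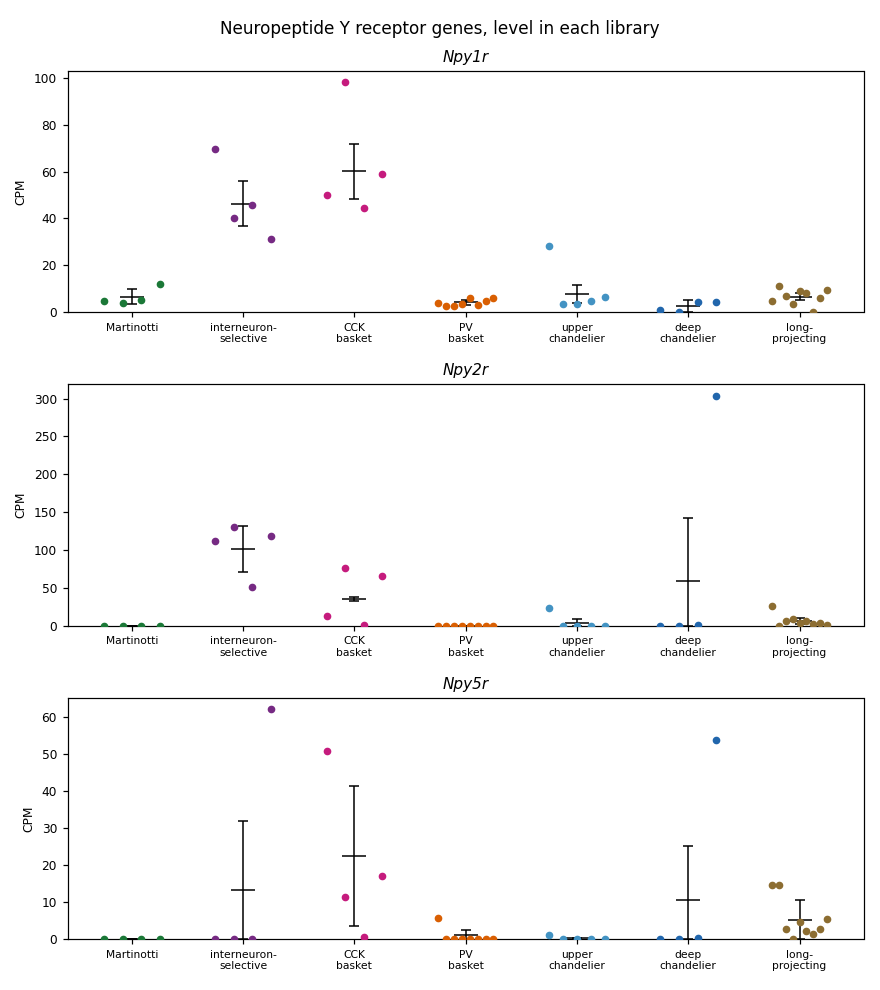
Levels of the 3 neuropeptide Y receptor genes in CPM on a linear axis, 1 point per library, with black bars at the mean ± SD over pools of animals (n = 2, long-projecting n = 4; lower bars stop at 0). Npy1r separates interneuron-selective and CCK basket libraries from the rest, while Npy2r and Npy5r each have 1 high deep chandelier library.

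**Figure D2:**
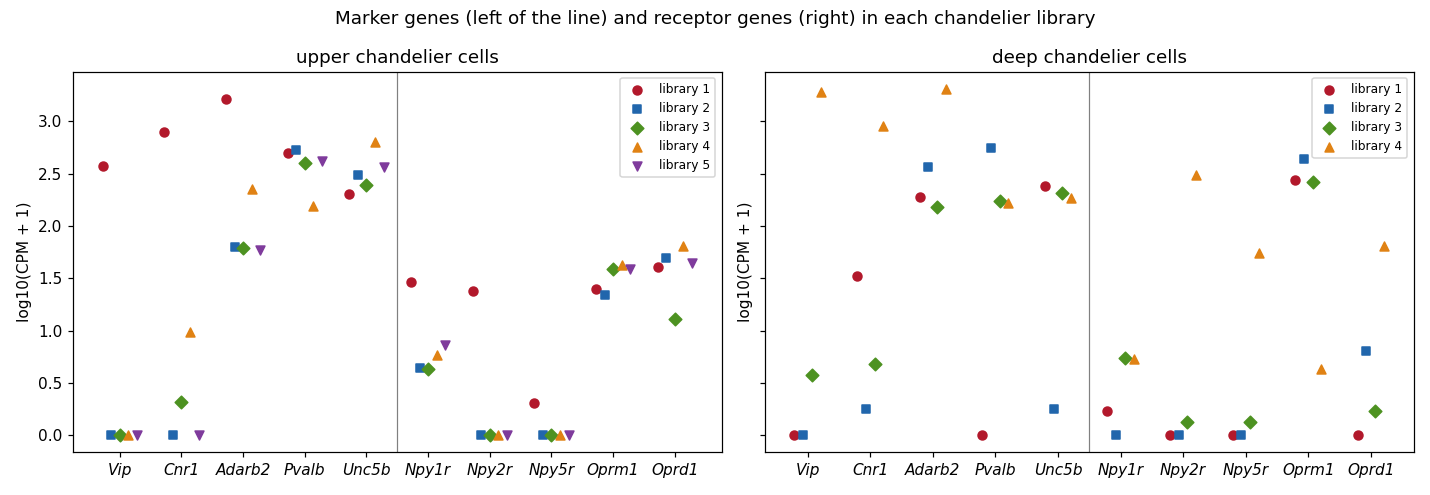
Marker genes and receptor genes in the 5 upper and 4 deep chandelier libraries, on a log10(CPM + 1) axis, 1 symbol per library. Upper library 1 and deep library 4 are high in Vip, Cnr1 and Adarb2; deep library 4 is also high in Npy2r (304 CPM), Npy5r (53.8 CPM) and Oprd1 (62.6 CPM) and low in Oprm1 (3.29 CPM).

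Of the somatostatin receptor genes, Sstr1 was the one with counts in most libraries, 19 of 38. Martinotti libraries gave 31.1, 38.8, 21.4 and 33.1 CPM. Long-projecting libraries ran from 1.38 through a median of 6.22 to 36.1 CPM, with counts in 9 of 9. Elsewhere it appeared in single libraries: interneuron-selective library 2 at 25.3 CPM, CCK basket library 1 at 3.04 CPM and deep chandelier library 4 at 11.0 CPM. In PV basket cells 3 libraries had at most 3.02 CPM, and upper chandelier cells had no count, which allows up to 0.426 CPM. Of the 34 other libraries, 32 lay below the lowest Martinotti library.

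The mean of Sstr1 was 31.5 ± 5.24 CPM in Martinotti (SD, n = 2), 8.89 ± 8.48 in long-projecting (SD, n = 4) and 7.06 ± 9.99 in interneuron-selective cells (SD, n = 2), and from there it fell through deep chandelier (2.12 ± 2.99, SD, n = 2) and CCK basket (0.941 ± 1.33, SD, n = 2) to PV basket cells (0.711 ± 0.662, SD, n = 2). Martinotti cells were called higher, where 3.91% of all genes were (edgeR adjusted p = 0.0231), at 9.60 times the mean level of the other 6 types. That call was lost without either Martinotti pool (adjusted p = 0.0894 and 0.0835) or without PV basket pool 1 (adjusted p = 0.0539). Against the other 5 types the 2 somatostatin types together were higher, where 6.24% of all genes were (edgeR adjusted p = 0.0139). With all types fitted, no pair of types was called for Sstr1, Martinotti against long-projecting cells included (edgeR adjusted p = 0.509). In the shared flow cell fitted alone, upper chandelier cells were called lower than long-projecting cells (edgeR adjusted p = 0.0121), where 16.4% of all genes were called. Sstr1 passed the filter of that fit through the long-projecting pools only, so the call lends no support to a difference.

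Sstr2 had 28.5 counts in all, in 28 cells of 8 libraries, and in 19 of those cells the count was not whole, so the level is uncertain; why was not tested. Deep chandelier libraries gave 7.51, 0, 3.44 and 0.549 CPM. Upper chandelier libraries gave at most 1.58 CPM, and Martinotti, interneuron-selective and PV basket cells had no count. The deep chandelier mean was 3.11 ± 1.10 CPM (SD, n = 2), from pools of 10.5 and 11 counts, and no other pool held more than 2.5 counts. The gene entered the test through these pools, so its calls (edgeR adjusted p = 0.0355 between types and 0.00435 for deep chandelier cells) lend no support to a difference. The call between types was not made by DESeq2 (adjusted p = 0.451), nor without any 1 of 15 of the 16 pools.

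Sstr3, known for its place on neuronal cilia, had 55 counts in 6 libraries. CCK basket library 4 gave 11.4 CPM and library 3 gave 0.429 CPM. PV basket libraries 1 to 4, of 1 pool, gave 3.38, 2.27, 1.39 and 0.711 CPM, and the 4 libraries of the other pool gave 0. Sstr4 had no count in any of 584 cells, which allows up to 0.038 CPM over the whole table.

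Oprm1, the mu opioid receptor gene, was the one receptor with counts in all 38 libraries. Deep chandelier libraries gave 271, 436, 263 and 3.29 CPM, and 3 of the 34 libraries of other types lay below library 4. Long-projecting libraries ran from 20.4 through a median of 45.6 to 135 CPM, and interneuron-selective libraries gave 52.7, 87.7, 22.9 and 53.5 CPM. The 3 high deep chandelier libraries did not overlap with any other library.

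Upper chandelier libraries gave 23.9, 20.9, 38.2, 41.5 and 37.4 CPM of Oprm1, and Martinotti libraries 19.6, 33.4, 5.36 and 53.7 CPM. CCK basket libraries gave 46.7, 2.88, 21.0 and 2.45 CPM. PV basket libraries ran from 3.20 through a median of 7.12 to 15.1 CPM, the lowest median of the 7 types. In order the means were 257 ± 133 CPM in deep chandelier (SD, n = 2), 54.8 ± 34.0 in long-projecting (SD, n = 4), 54.1 ± 25.7 in interneuron-selective (SD, n = 2), 30.4 ± 12.1 in upper chandelier (SD, n = 2), 29.4 ± 3.45 in Martinotti (SD, n = 2), 20.7 ± 13.0 in CCK basket (SD, n = 2) and 8.07 ± 0.745 in PV basket cells (SD, n = 2).

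Oprm1 was called higher in deep chandelier cells, at log2 3.49 ± 0.39 (SE) against the mean log level of the other 6 types (edgeR adjusted p = 0.000106). Without library 4 the difference was log2 3.78 ± 0.36 (adjusted p = 3.39e-05) and the mean 307 ± 62.2 CPM (SD, n = 2). Deep chandelier cells were higher than each of the other 6 types in pairwise tests, where 12.5% of all genes were called against Martinotti, 15.5% against interneuron-selective, 8.96% against CCK basket, 6.88% against PV basket, 2.83% against upper chandelier and 16.5% against long-projecting cells. Upper chandelier cells stood at log2 -3.40 ± 0.71 relative to deep ones (edgeR adjusted p = 0.0254). Over the fits without 1 pool, the call against upper chandelier cells held in 13 of 16 and that against interneuron-selective cells in 14 of 16. Those against Martinotti, CCK basket and long-projecting cells held in 15 of 16 each, and that against PV basket cells in 16 of 16. PV basket cells were called lower, where 1.11% of all genes were, at log2 -2.62 ± 0.61 (edgeR adjusted p = 0.0292). That call was lost without either PV basket pool (adjusted p = 0.28 and 0.297), without upper chandelier pool 2 (0.0501) and without long-projecting pool 1 (0.0505).

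Oprd1, the delta opioid receptor gene, had its highest means in PV basket, upper chandelier and Martinotti cells, which did not differ beyond their spread. PV basket libraries ran from 10.3 through a median of 49.4 to 116 CPM. Upper chandelier libraries gave 39.5, 48.3, 12.0, 63.9 and 43.1 CPM, and Martinotti libraries 99.2, 30.8, 6.25 and 22.8 CPM. Of the 25 libraries outside PV basket and upper chandelier cells, 21 lay below the lowest of those 13.

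The other types had little Oprd1, with the exception of deep chandelier library 4, which gave 62.6 CPM against 0, 5.36 and 0.688 CPM in libraries 1 to 3. Long-projecting libraries were at most 4.75 CPM, interneuron-selective libraries at most 4.46 CPM and CCK basket libraries at most 8.98 CPM. The means were 45.7 ± 0.110 CPM in PV basket (SD, n = 2), 44.1 ± 2.34 in upper chandelier (SD, n = 2), 39.0 ± 33.4 in Martinotti (SD, n = 2), 13.6 ± 15.5 in deep chandelier (SD, n = 2), 2.51 ± 3.55 in CCK basket (SD, n = 2), 1.66 ± 2.35 in interneuron-selective (SD, n = 2) and 1.53 ± 0.927 in long-projecting cells (SD, n = 4).

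Types differed for Oprd1 (edgeR adjusted p = 0.0335), a call lost without any 1 of 8 pools, those of PV basket, upper chandelier and long-projecting cells (adjusted p from 0.0636 to 0.0812). No type was called against the other 6. The 1 pair called was PV basket over long-projecting cells, a pair in which 5.03% of all genes were called, at log2 4.73 ± 1.23 (SE, edgeR adjusted p = 0.0388), and it held in 8 of 16 fits without 1 pool (adjusted p up to 0.1798). Upper chandelier over long-projecting cells, where 4.08% of all genes were called, was log2 4.61 ± 1.23 (adjusted p = 0.0503), and within their shared flow cell, fitted alone, log2 4.66 ± 0.57 (adjusted p = 0.000468). That fit called 16.4% of all genes.

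Oprk1, the kappa opioid receptor gene, was detected in 3 types. Long-projecting libraries ran from 1.29 through a median of 8.76 to 35.1 CPM, with counts in 9 of 9. Martinotti libraries gave 1.85, 0.642, 26.8 and 2.94 CPM, and CCK basket libraries 17.2, 0, 0 and 14.3 CPM. It had no count in 4 interneuron-selective, 8 PV basket, 5 upper chandelier and 4 deep chandelier libraries, which allows up to 0.968, 0.144, 0.426 and 0.404 CPM.

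Mean levels of Oprk1 were 10.7 ± 7.34 CPM in long-projecting (SD, n = 4), 8.99 ± 2.36 in CCK basket (SD, n = 2) and 7.46 ± 8.85 in Martinotti cells (SD, n = 2), which did not differ beyond their spread. Each was called higher than the mean log level of the other 6 types, 4 of which were at 0: long-projecting cells (edgeR adjusted p = 0.00113), where 9.71% of all genes were higher, CCK basket cells (adjusted p = 0.00616) and Martinotti cells (adjusted p = 0.0141). The Martinotti call rested on the pool with library 3 (adjusted p = 0.265 without it). The 2 somatostatin types together were higher than the other 5 (edgeR adjusted p = 0.00135), 4 of which had no count. The remaining type, CCK basket, had a mean above that of Martinotti cells, so Oprk1 was not particular to the somatostatin types. Upper chandelier cells, run on the flow cell of the long-projecting cells, had no Oprk1. In the fit of that flow cell alone, Oprk1 passed the filter through the long-projecting pools only. Its call there therefore lends no support to a difference. The pair was called with all types (edgeR adjusted p = 0.0425), in 6 of 16 fits without 1 pool (adjusted p up to 0.2812), and in the shared flow cell fitted alone (adjusted p = 0.00812).

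**Figure D3:**
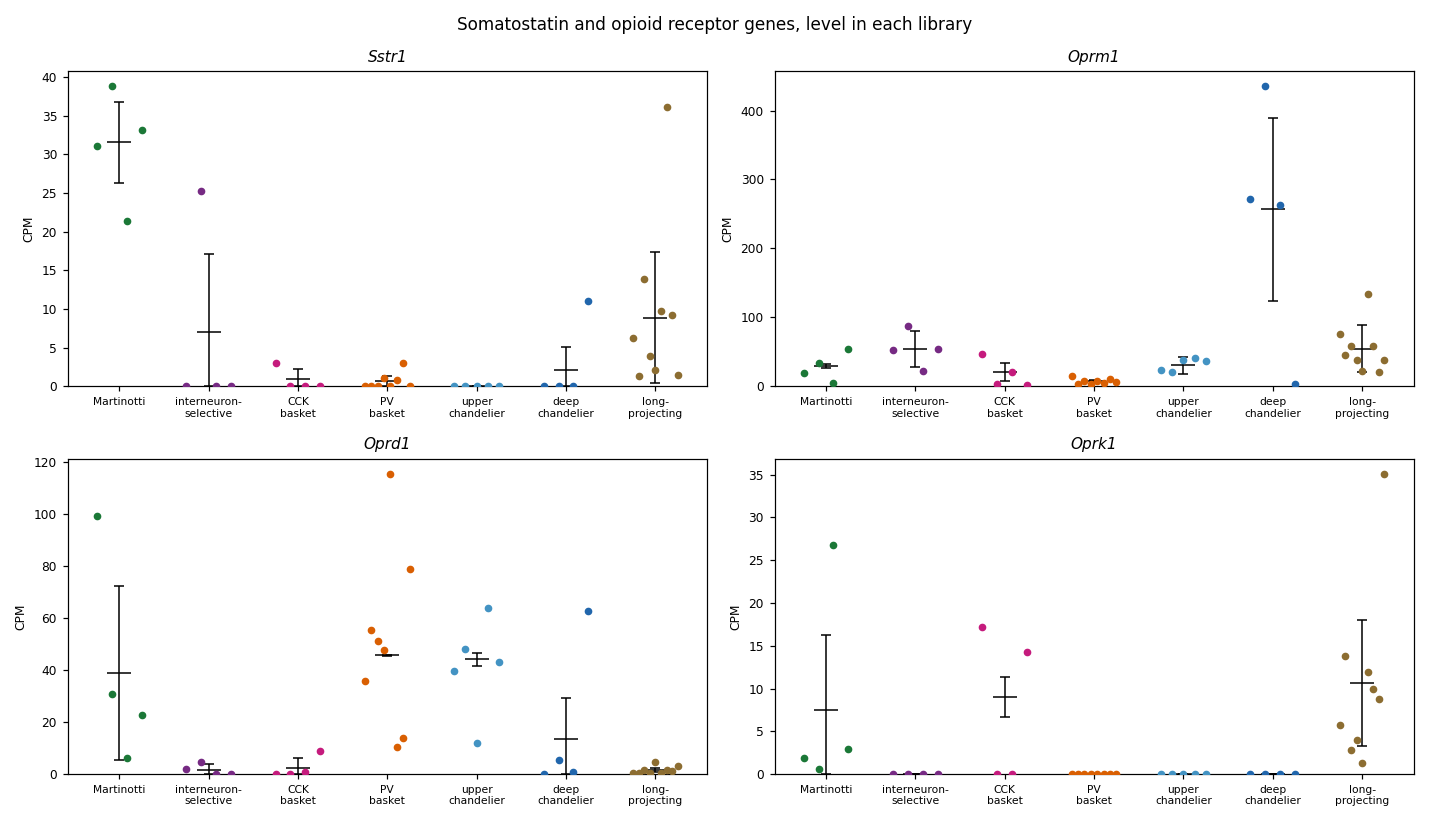
Levels of Sstr1, Oprm1, Oprd1 and Oprk1 in CPM on linear axes, 1 point per library, with black bars at the mean ± SD over pools of animals (n = 2, long-projecting n = 4; lower bars stop at 0). Oprm1 is between 263 and 436 CPM in 3 deep chandelier libraries and 3.29 CPM in the other one, and Oprk1 is at 0 in 4 types.

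The peptide genes for these receptors were read in the same libraries. Of 9 listed, 6 were tested and 5 differed between types (edgeR), where 25.0% of all genes did. The 5 include Sst, whose driver labelled the Martinotti and long-projecting cells, so its difference followed from the labelling. They also include Npy, a listed marker of long-projecting cells. Pyy, Ppy and Pdyn had no count. Npy was 18772 ± 2217 CPM in long-projecting cells (SD, n = 4) and 3700 ± 279 in Martinotti cells (SD, n = 2), and at most 295 ± 54.3 in the other types (CCK basket; SD, n = 2). Sst was 2283 ± 286 CPM in long-projecting (SD, n = 4) and 1523 ± 426 in Martinotti cells (SD, n = 2), and at most 1.57 CPM elsewhere. Npy1r and Npy2r were highest in types with at most 295 CPM of Npy, whereas Sstr1 was highest in a type with much Sst.

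Cort, the somatostatin relative cortistatin, was highest in long-projecting cells (173 ± 107 CPM, SD, n = 4). Penk, the enkephalin precursor, was 803 ± 181 CPM in long-projecting (SD, n = 4), 660 ± 69.7 in interneuron-selective (SD, n = 2) and 271 ± 113 in CCK basket cells (SD, n = 2), and 1.82 to 42.7 CPM in the other 4. Pnoc, the nociceptin precursor, was 311 ± 67.3 CPM in CCK basket cells (SD, n = 2), and Pomc did not pass the threshold (adjusted p = 0.191). Of the other receptors of these families, Ppyr1, Npy6r and Sstr5 had no count. Oprl1, the nociceptin receptor gene, was 35.2 ± 7.24 CPM in long-projecting cells (SD, n = 4), where it was called higher (edgeR adjusted p = 0.000584), and had no count in interneuron-selective cells.

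**Figure D4:**
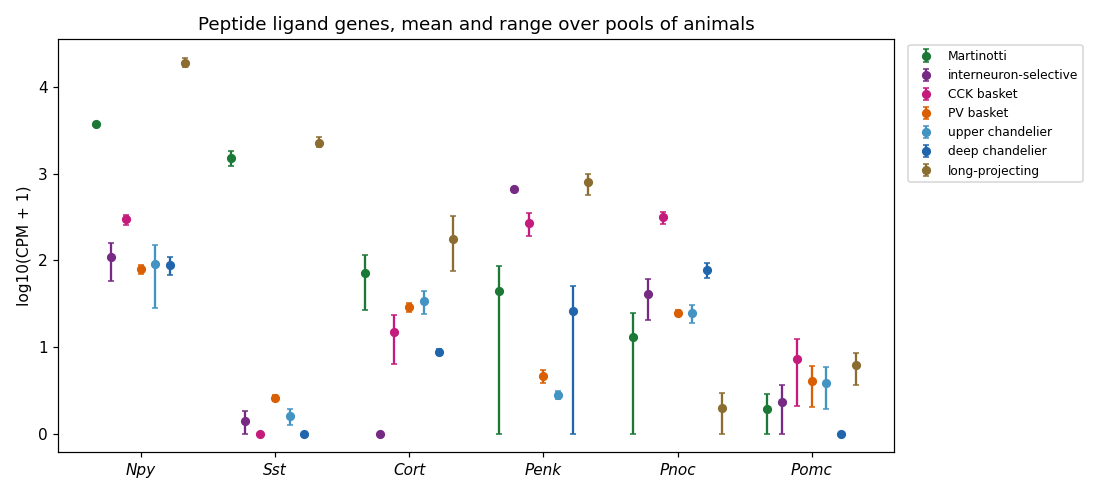
Peptide precursor genes by type on a log10(CPM + 1) axis; points are the mean over pools of animals and bars the lowest and highest pool (2 pools, long-projecting 4). Npy and Sst are highest in long-projecting and Martinotti cells, Penk in long-projecting and interneuron-selective cells, and Pnoc in CCK basket cells.

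Downstream of the receptors, 3 of 5 inhibitory G protein alpha subunit genes, 5 of 12 beta and gamma subunit genes, 3 of 3 tested GIRK subunit genes, 1 of 3 presynaptic calcium channel genes, 4 of 8 adenylyl cyclase genes, 2 of 7 receptor kinase and arrestin genes and 3 of 9 peptide cleaving enzyme genes differed between types, where 25.0% of all genes did. Gnai1 was highest in deep chandelier cells (345 ± 192 CPM, SD, n = 2), the type highest in Oprm1, and was called higher there at log2 1.86 ± 0.29 (edgeR adjusted p = 0.000892). Kcnj6, the GIRK2 channel subunit gene, was called higher there as well, where 12.3% of all genes were, at log2 1.60 ± 0.47 (edgeR adjusted p = 0.0287). Its mean of 28.6 ± 6.57 CPM there (SD, n = 2) was near those of interneuron-selective (24.4 ± 3.37, SD, n = 2) and upper chandelier cells (21.5 ± 0.519, SD, n = 2). Gng4, a gamma subunit gene, was called lower in deep chandelier cells, as were 6.79% of all genes, at log2 -5.67 ± 0.78 (edgeR adjusted p = 0.000396).

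In long-projecting cells, the type with the highest mean of Oprk1, both Kcnj3 (GIRK1) and Kcnj6 were called lower, as were 3.41% of all genes, at log2 -2.93 ± 0.46 and log2 -2.27 ± 0.47 (edgeR adjusted p = 0.000658 and 0.00521). Cacna1e, the R-type calcium channel gene, was called higher there, where 9.71% of all genes were, at log2 3.46 ± 0.30 (edgeR adjusted p = 4.27e-06). Martinotti cells were also called lower for Kcnj3 (log2 -2.15, edgeR adjusted p = 0.0499) and higher for Cacna1e (log2 1.43, adjusted p = 0.0427). Kcnj6 was 7.64 ± 2.60 CPM in Martinotti (SD, n = 2) and 3.19 ± 1.91 CPM in long-projecting cells (SD, n = 4). The somatostatin types together were called lower for Kcnj3 and Kcnj6 and higher for Cacna1e. Kcnj3 was 122 ± 23.1 CPM in PV basket cells (SD, n = 2) and 115 ± 77.3 CPM in CCK basket cells (SD, n = 2). Adcy1, Adcy2 and Adcy7 had the lowest adjusted p of the cyclases; Adcy2 was highest in Martinotti cells (544 ± 37.1 CPM, SD, n = 2) and lowest in PV basket cells (12.4 ± 1.28, SD, n = 2).

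The receptor genes and others that varied most alike over the 16 pools are given by Pearson's r of log2(CPM + 1) among 9819 genes, as a description, since pools of 1 type share that type. Npy1r was nearest to Serpine2 (r = 0.928), Slc35f1 (0.925) and Sorcs1 (0.921), and Npy2r to Pcdh20 (0.916), Sorcs3 (0.904) and Txlng (0.882). Oprm1 was nearest to Drg2 (0.856), Drg1 (0.821) and Ftl1 (0.812), and Oprd1 to Laptm4b (0.895), Spry2 (0.883) and Dnm1 (0.855). Oprk1 was nearest to Eef1a1 (0.853), Pde1a (0.812) and Mir703 (0.809), and Sstr1 to Ptpru (0.840), Celf6 (0.816) and Cdh13 (0.815). Npy5r was nearest to Pomgnt1 (0.865), Asap1 (0.803) and Svil (0.789), and Sstr2, with few counts, to Gdf10 (0.927), Tnnt1 (0.903) and Ssx2ip (0.901). Among the receptors, Npy1r and Npy2r had r = 0.712 over the same 16 pools.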

How the data were processed

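Hand-picked fluorescent neurons were amplified by 2 rounds of linear amplification, with a random tag on each molecule, per the labels' protocols, and mapped with Bowtie 0.12.7 to mm9, per the submitters' processing notes. The authors deposited estimated counts per gene and cell; 4.07% of the values above 0 were not whole. Counts were summed by labelled animal and rounded. PV basket animals were combined in 2 pairs, because their libraries agreed within 1.93 times counting error, which left 16 pools; the labels give the combined animals different sexes or ages, and the alternative with all 18 labelled animals keeps them apart. No column of the table was left out.

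The members and lists were chosen with earlier results of these data known. Genes with low counts were removed by filterByExpr, and 15533 were tested with edgeR 4.0.16 (TMM scaling, quasi-likelihood test, R 4.3.3), with Benjamini-Hochberg adjustment over all of them and a threshold of 0.05. The spread was shared by all types. Types were compared jointly, each against the other 6, in pairs, as caudal against medial lineage and as somatostatin types against the rest. The code was tested on simulated data. Alternatives used DESeq2 1.42.0, limma 3.58.1, other scaling, no filter, labelled animals, libraries and each pool left out.

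All 10 receptors, the ligands and the related receptors were named; in other lists, up to 3 genes with the lowest joint adjusted p. For each tested receptor the 3 genes most alike were named, among genes of at least 20 CPM in 1 type. Labels do not say that animals are independent cultures or litters, so p-values measure the spread between these pools. Promoter positions are on GRCm38.p6 and were not compared with mm9 positions.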

Additional observations from a re-analysis of the deposited data

Results flagged for a closer look

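Libraries were not all equal in 47 combinations of receptor and type. In 21 of these, Dixon's test at the 95% level flagged 1 library as far from the others of its type. Many are values above a group otherwise at 0, where the test flags the library whatever its size, down to 1 count. The level of the test holds for normally distributed values, so 21 of 47 cannot show an excess of unusual libraries.

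Deep chandelier library 4 stood apart for Npy2r (304 CPM), Npy5r (53.8 CPM), Sstr1 (11.0 CPM) and Oprd1 (62.6 CPM). Upper chandelier library 1 stood apart for Npy1r (28.1 CPM), Npy2r (22.9 CPM) and Npy5r (1.04 CPM, 1 count). These 2 libraries also carried Vip and Cnr1, and the part of that in the values was not tested.

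In CCK basket cells library 4 stood apart for Sstr3 (11.4 CPM) and Oprd1 (8.98 CPM), and library 1 for Sstr1 (3.04 CPM) and Sstr2 (0.38 CPM). In interneuron-selective cells library 4 stood apart for Npy5r (62.2 CPM) and library 2 for Sstr1 (25.3 CPM). In PV basket cells library 1 stood apart for Npy5r (5.63 CPM) and library 7 for Sstr1 (3.02 CPM).

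In long-projecting cells library 1 stood apart for Npy2r (26.2 CPM), library 4 for Sstr2 (0.436 CPM, 1 count), library 6 for Oprm1 (135 CPM), library 7 for Sstr1 (36.1 CPM) and library 9 for Oprk1 (35.1 CPM). In Martinotti cells library 3 stood apart for Oprk1 (26.8 CPM).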

How the results depend on the processing

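Npy1r, Oprk1 and Oprm1 stayed past the threshold for a difference between types in 26 of 26 alternatives, as did Npy1r in CCK basket, Npy2r in interneuron-selective, Oprm1 in deep chandelier and Oprk1 in long-projecting cells. Of the 8 receptors tested, 6 differed between types; leaving out 1 pool gave 4 to 7. Calls of a receptor lower in a type numbered 1, against 7 with DESeq2, 4 with labelled animals, 3 with limma and 6 with libraries as samples; calls higher numbered 10, against 17 with libraries. Leaving out 1 pool gave 8 to 14 higher and 0 to 2 lower. Pairwise calls numbered 28, against 56 with DESeq2, 69 with libraries and 13 to 37 without 1 pool. The caudal comparison had 0 receptors lower and 1 with DESeq2, labelled animals, libraries or limma, and 0 to 1 without 1 pool; the somatostatin one had 0 lower and 1 with DESeq2. Within a shared flow cell, Martinotti against interneuron-selective calls were 1 in place of 0, and upper chandelier against long-projecting calls 4 in place of 1, fits in which 0.637% and 16.4% of all genes were called, against 3.09% and 4.08% with all types. Receptors with at most 1 count in 1 type of a pair entered these fits through the other type alone. Npy2r in deep chandelier cells reversed without that type's pool 2 (log2 -6.198; log2 -6.198 to 6.29 over the fits without 1 pool), without its library 4 (log2 -3.00) and without that and upper chandelier library 1 (log2 -1.88); against Martinotti cells it came to log2 0 without pool 2 (range -12.35 to 0), both types then having no count. Npy5r in caudal types reversed without interneuron-selective pool 2 (log2 -0.006382, range -0.006382 to 6.233). These fits hold types with no count, so the sizes are not folds. The left-out libraries were chosen after seeing the data; the cause of the other changes was not tested.

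Title numbers do not pair libraries: same-numbered libraries of different types had correlations of deviations from -0.054 to 0.0357 (91 pairs). Libraries with the replicate block gave 2 receptor and type calls lower and 1 receptor lower in the caudal comparison, and 35 pairwise calls. Of all genes, 2174 to 8679 differed between types across alternatives, against 3888. Of 70 levels, 68 moved by no more than 1 SD with TMM scaling and 67 with means over cells. Levels of 0 are counted among these, and neither change could move them. With 2 pools per type, the precision is limited, most of all for Sstr2 and Sstr3.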
